A study of Mus musculus with 4 samples.

Results

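The genes described here are 46 genes of the cell cycle and mitosis, chosen by name from the 21578 genes that the deposited tables hold together. All 46 were listed with reads in every library, and all 46 passed edgeR's filter on low counts. They were sorted by role into 9 genes of G1 and G1/S control, 2 inhibitors of cyclin-dependent kinases (CDK), 13 genes of S phase, 11 genes of G2/M control, 10 genes of the chromosome and spindle machinery, and Mki67. The measurements are bulk RNA sequencing of brain endothelial cells that were purified by flow cytometry from C57BL/6 mice at P0 (postnatal day 0), with 2 libraries from Pd1fl/fl mice and 2 from Pd1cKO-Tie2 mice. Both genotypes carry the floxed allele of Pd1 (Pdcd1), which encodes the immune checkpoint receptor PD-1. The Pd1cKO-Tie2 mice also carry Cre driven by the Tie2 promoter, which is active in the endothelial lineage and in part of the blood cell lineage. How many animals went into a library is not given in the sources used here, so the p-values measure only the spread between these libraries. The comparison asks whether the transcripts of dividing cells differ between endothelial cells with and without Pd1.

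The cell division cycle is driven by CDKs that become active when bound to cyclins. D-type cyclins with CDK4 and CDK6 act in G1, and cyclin E with CDK2 at the entry into S phase, where the MCM helicase opens DNA and ribonucleotide reductase and thymidylate synthase supply deoxynucleotides. Cyclin A and cyclin B with CDK1, Aurora and Polo-like kinases and the spindle checkpoint then control mitosis, while kinesins and centromere proteins move the chromosomes. Many S phase genes are transcribed under E2F factors, and many G2/M genes through CHR (cell cycle genes homology region) elements and CCAAT boxes. The brain vasculature of a newborn mouse is still growing, and sprouting endothelium holds proliferating cells.

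The promoters of these genes carry letters that differ by phase, and a few are shown here for that reason. A promoter window was taken from RefSeq (GRCm38.p6) for 37 of the 46 genes and ran from 250 bases before to 50 bases after the annotated start. Ccna2, Ccne2, Ccnd1, Ccnd2, Aurkb, Kif20a, Tpx2, Mcm4 and Gins2 had no entry. Each window was searched on both strands for the CHR letters TTTGAA and TTTAAA, the CCAAT box letters CCAAT, and the E2F letters TTCCCGC and TTGGCGC. An E2F match and a CCAAT match can overlap by their shared bases. The 250 bases before the start are printed below, 5′ to 3′ along the gene, with the matches in capitals.
Ccnd3 (chr17:47504801-47505050, plus strand): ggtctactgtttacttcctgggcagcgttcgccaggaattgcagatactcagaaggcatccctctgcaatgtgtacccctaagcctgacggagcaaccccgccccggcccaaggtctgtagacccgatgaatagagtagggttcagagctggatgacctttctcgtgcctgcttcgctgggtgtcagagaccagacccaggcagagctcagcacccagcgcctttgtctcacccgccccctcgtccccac
Rrm1 (chr7:102441445-102441694, plus strand): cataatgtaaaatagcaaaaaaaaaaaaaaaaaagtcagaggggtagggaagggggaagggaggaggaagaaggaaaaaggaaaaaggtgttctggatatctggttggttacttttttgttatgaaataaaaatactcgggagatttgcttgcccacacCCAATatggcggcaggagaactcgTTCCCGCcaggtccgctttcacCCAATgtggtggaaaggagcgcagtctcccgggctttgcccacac
Mcm6 (chr1:128359706-128359955, minus strand): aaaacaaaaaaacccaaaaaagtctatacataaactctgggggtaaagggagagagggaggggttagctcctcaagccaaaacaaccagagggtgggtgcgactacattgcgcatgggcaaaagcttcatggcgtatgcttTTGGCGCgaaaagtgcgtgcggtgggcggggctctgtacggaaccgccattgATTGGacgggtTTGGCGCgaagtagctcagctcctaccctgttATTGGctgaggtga
Cdc20 (chr4:118437344-118437593, minus strand): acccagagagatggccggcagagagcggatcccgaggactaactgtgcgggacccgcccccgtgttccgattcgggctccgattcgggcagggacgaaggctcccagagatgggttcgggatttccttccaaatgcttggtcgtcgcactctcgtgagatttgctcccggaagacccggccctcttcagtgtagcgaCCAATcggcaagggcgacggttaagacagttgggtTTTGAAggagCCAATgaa
Ccnb1 (chr13:100786487-100786736, minus strand): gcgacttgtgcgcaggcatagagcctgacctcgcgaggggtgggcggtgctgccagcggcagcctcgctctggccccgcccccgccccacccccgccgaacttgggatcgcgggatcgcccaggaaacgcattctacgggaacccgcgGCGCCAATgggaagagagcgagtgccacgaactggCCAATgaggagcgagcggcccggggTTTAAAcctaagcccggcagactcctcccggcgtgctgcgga
Top2a (chr11:99024190-99024439, minus strand): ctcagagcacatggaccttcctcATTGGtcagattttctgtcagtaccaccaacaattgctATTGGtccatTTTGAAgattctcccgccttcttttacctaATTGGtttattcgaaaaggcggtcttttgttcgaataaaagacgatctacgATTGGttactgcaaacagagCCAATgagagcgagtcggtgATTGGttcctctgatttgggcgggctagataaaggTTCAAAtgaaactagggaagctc
Bub1 (chr2:127831860-127832109, minus strand): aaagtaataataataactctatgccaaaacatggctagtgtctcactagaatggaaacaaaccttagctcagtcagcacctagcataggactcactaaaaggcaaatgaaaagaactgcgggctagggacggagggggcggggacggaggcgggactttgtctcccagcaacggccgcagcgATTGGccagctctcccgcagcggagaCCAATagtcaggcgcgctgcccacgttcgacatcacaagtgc
Ccnd3, Rrm1 and Cdc20 are shown as 3 of the 4 genes that passed the unadjusted test below, Mcm6 as an S phase gene with a pair of E2F matches, Ccnb1 and Top2a as the G2/M genes set beside the S phase genes, and Bub1 as the G2/M regulator with the largest difference. The choice of these 7 was made with their values known. The annotated starts used for the windows of Cdk6, Cdc6, E2f1 and Mcm7 lie between 350 and 2408 bases away from the gene start of the deposited tables.

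CHR letters were present in 15 of 17 windows of G2/M control and spindle genes (88.2%) and in 3 of 11 windows of S phase genes, against 27.6% of all 32851 promoters in the table. CCAAT letters were present in 15 of 17 G2/M and spindle windows, in 8 of 11 S phase windows and in 37.4% of all promoters. E2F letters showed the opposite split between the phases, with 7 of 11 S phase windows, 2 of 17 G2/M and spindle windows and 6.81% of all promoters. In Ccnb1 a CHR match began 42 bases before the start, downstream of both CCAAT boxes. In Top2a a CHR match began 23 bases before the start, with 6 CCAAT boxes above it. In Cdc20 a CHR match began 18 bases before the start, with a CCAAT box on each side. In Rrm1 an E2F match began 67 bases before the start, between the CCAAT boxes, and no CHR letters were found. Bub1 held a pair of CCAAT boxes and no CHR letters in this window, and the Ccnd3 window held none of the 3 motifs. These are matches of letters, not measured binding sites.

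Levels were compared with the count model of edgeR after TMM scaling, which sets the libraries to a common scale by the bulk of their genes. Across the 46 genes, none changed by the study's criterion of at least 2-fold with an edgeR p of 0.05 or less, a criterion that 4.02% of the 15909 tested genes met. Without the fold limit, 4 genes (8.70%) had an edgeR p of 0.05 or less, against 6.39% of all tested genes. Ccnd1, Ccnd3 and Cdc20 were higher in Pd1cKO-Tie2 (6.52% of the 46 genes, against 2.84% of all tested genes), and Rrm1 was lower (2.17%, against 3.55%). None of the 46 had an adjusted p under 0.05 by edgeR, DESeq2 or limma-voom. By edgeR 0% of all tested genes passed at that adjusted level, and by DESeq2 0.672%. The share of 8.70% rests on 4 genes and lies near the background. Each library was also left out in turn, which leaves a single library in a genotype, so only directions and sizes were read from these fits. The directions of these 4 genes stayed as given in each of them.

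**Figure D1:**
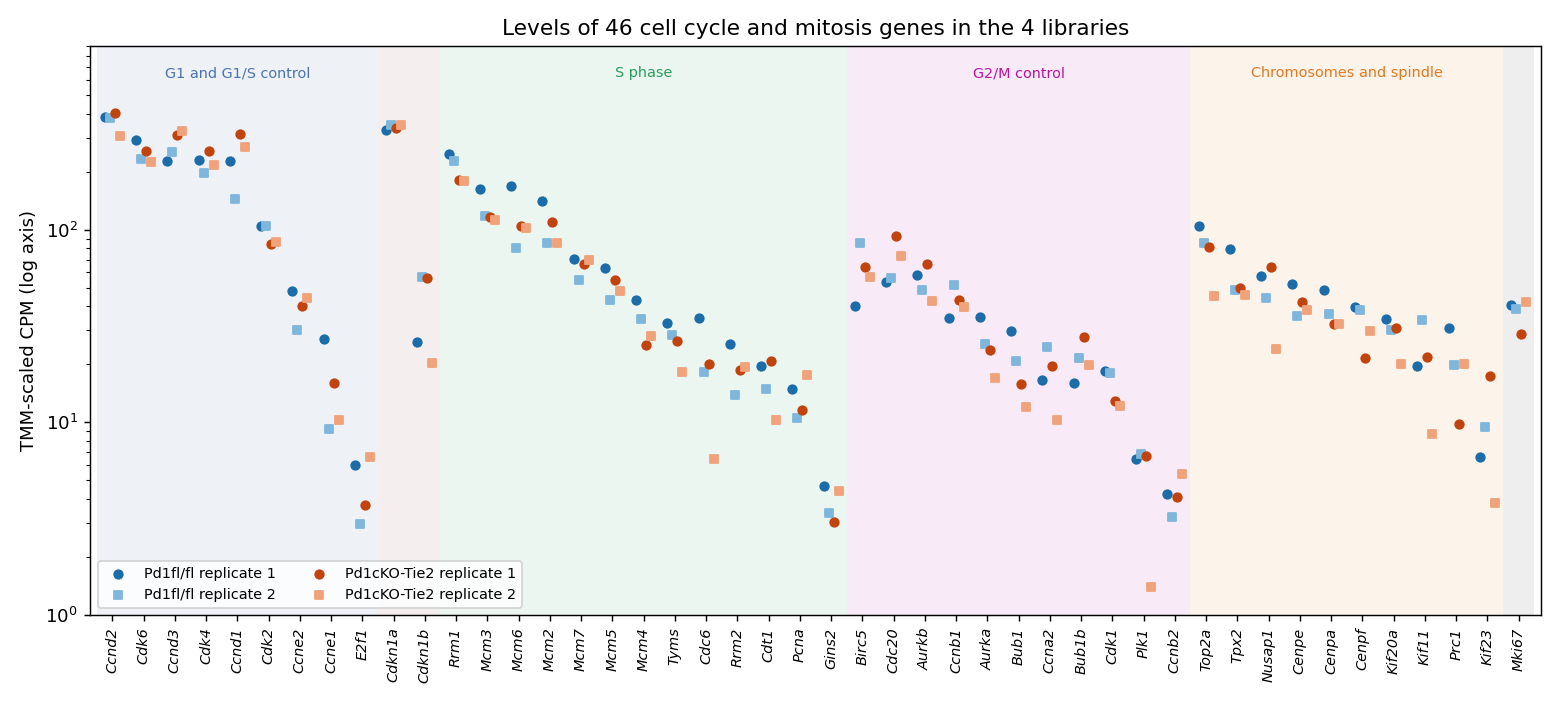
Levels of the 46 genes in each library, as TMM-scaled CPM, the reads of a gene scaled to the size of its library, on a log axis, with circles for replicate 1 and squares for replicate 2 of Pd1fl/fl (blue) and Pd1cKO-Tie2 (orange). Within a phase the genes are ordered by their Pd1fl/fl mean, and most genes show blue and orange points that interleave; Plk1 stood at 1.39 CPM in Pd1cKO-Tie2 replicate 2.

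Total counts were 13715837 and 14359990 for the controls and 14157027 and 24147311 for the mutants, and a limit of 3 counts corresponds to 0.124 to 0.219 CPM. The targeted gene, Pdcd1, held 32 reads in Pd1fl/fl replicate 1 and 0 reads in the other 3 libraries, so its level did not separate the genotypes at this depth. The 10 endothelial markers were all present, with summed levels of 10245 and 9282 CPM in Pd1fl/fl and 12119 and 12934 CPM in Pd1cKO-Tie2. All 10 had a log2 difference above 0, from 0.21 to 0.67 with a median of 0.35. Of these, 4 were higher at an edgeR p of 0.05 or less, as were 2.84% of all tested genes. All 10 markers of radial glia and neural progenitors were also detected, with summed levels of 1147 and 1180 CPM in Pd1fl/fl and 941 and 977 CPM in Pd1cKO-Tie2, and 3 of them were lower at that level. Their log2 differences lay below 0 in 7 and above 0 in 3. Slc1a3 and Fabp7 were lower with a DESeq2 adjusted p of 0.00287 and 0.00523, while Nes rose without overlap (log2 difference 0.65 ± 0.28). The 8 microglia and macrophage markers summed to 1150 and 1487 CPM in Pd1fl/fl and 469 and 1018 CPM in Pd1cKO-Tie2, with 3 lower at an edgeR p of 0.05 or less. Neutrophil genes set Pd1fl/fl replicate 1 apart, at 908 CPM against a summed level of 1.17 to 55.4 CPM in the other 3 libraries, although Ly6g was at 0 in all 4. For cultured endothelial cells the study's methods describe a sort after staining for CD31 and CD45, a stain that can remove blood cells, and the gate used for the sequenced cells is not given there. Ptprc, which encodes CD45, stood at 86.4 and 139 CPM in Pd1fl/fl and at 54.6 and 67.9 CPM in Pd1cKO-Tie2. Neural progenitors and blood precursors also divide, and their part in the levels below was not tested. The part of the higher endothelial marker levels in the genes that rose was not tested either. In bulk RNA a difference in the number of cycling cells and a difference in cell cycle RNA per cell cannot be told apart.

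Of the 9 genes of G1 and G1/S control, 2 passed the unadjusted test (22.2%, against 6.39% of all tested genes), and both were D-type cyclins that rose. Ccnd1, encoding cyclin D1, the D-type cyclin that couples growth factor signals to CDK4 and CDK6 (chr7:144929931-144939925, minus strand), stood at 227 and 144 CPM in Pd1fl/fl and at 315 and 268 CPM in Pd1cKO-Tie2. The genotypes did not overlap, and the rise was 0.65 ± 0.25 (SE) on the log2 scale, or 1.57-fold (edgeR adjusted p = 0.753). It was 1.02 without Pd1fl/fl replicate 1 and 0.36 without Pd1fl/fl replicate 2. Ccnd1 shares 21.6% of its 50-base exon stretches with other genes, most often with a gene on the opposite strand, and the use of strand in counting is not stated. Ccnd3, encoding cyclin D3 (chr17:47505051-47599691, plus strand), stood at 228 and 253 CPM in Pd1fl/fl and at 310 and 325 CPM in Pd1cKO-Tie2. Its libraries did not overlap either, with a rise of 0.40 ± 0.15 on the log2 scale (edgeR adjusted p = 0.753). Ccnd2, encoding cyclin D2 (chr6:127125162-127152193, minus strand), had 384 and 380 CPM in Pd1fl/fl and 404 and 306 CPM in Pd1cKO-Tie2, so the genotypes overlapped (log2 difference -0.10 ± 0.18, edgeR adjusted p = 1.00).

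Per kilobase of merged exon, Ccnd1 stood at 48.2 and 30.7 CPM per kb in Pd1fl/fl and at 67.0 and 56.8 CPM per kb in Pd1cKO-Tie2. This length joins the exons of all annotated transcripts of a gene, so comparisons between genes depend in part on the annotation. On this scale Ccnd1 made up 41.9% and 30.7% of the D-type cyclin sum in the controls and 46.1% and 44.9% in the mutants. Ccnd2 made up 35.5% and 40.4% in the controls and 29.6% and 25.7% in the mutants. The sum of the 3 cyclins was 115 and 99.9 CPM per kb in Pd1fl/fl and 145 and 126 CPM per kb in Pd1cKO-Tie2. Both shares and sums were computed after the values of the single cyclins were seen and were given no test.

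**Figure D2:**
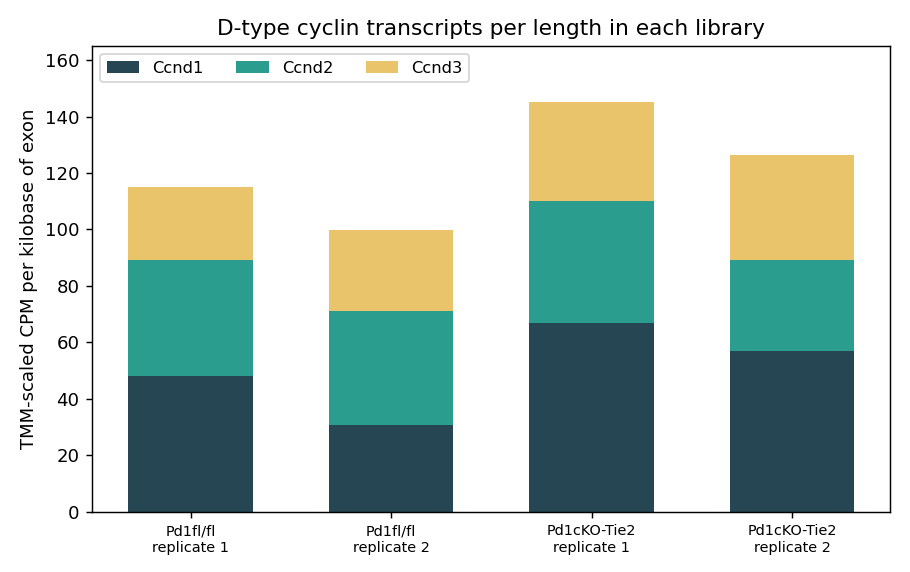
Levels of Ccnd1, Ccnd2 and Ccnd3 per kilobase of exon, as TMM-scaled CPM per kb, stacked for each of the 4 libraries. The Pd1fl/fl stacks reach 115 and 99.9 and the Pd1cKO-Tie2 stacks 145 and 126, and the Ccnd1 part is tallest in the Pd1cKO-Tie2 libraries.

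The catalytic partners of these cyclins did not pass the test. Cdk4 stood at 229 and 196 CPM in Pd1fl/fl and at 256 and 217 CPM in Pd1cKO-Tie2 (log2 difference 0.15 ± 0.17), and Cdk6 at 291 and 232 CPM against 257 and 223 CPM (log2 difference -0.12 ± 0.18). Cdk2, the partner of cyclin E and cyclin A, had 104 CPM in both Pd1fl/fl libraries and 83.9 and 85.9 CPM in Pd1cKO-Tie2, which did not overlap, though the difference of -0.29 ± 0.19 missed the test (edgeR adjusted p = 0.945). Of the E-type cyclins, Ccne1 varied more within Pd1fl/fl (27.1 and 9.23 CPM) than between the genotypes (16.1 and 10.3 CPM in Pd1cKO-Tie2), and Ccne2 overlapped as well (log2 difference 0.11 ± 0.32). E2f1, a transcription factor for S phase genes, was low in all libraries, between 2.96 and 6.59 CPM.

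The inhibitors showed a very steady and a very variable gene. Cdkn1a, encoding the CDK inhibitor p21, stood at 329 and 351 CPM in Pd1fl/fl and at 336 and 348 CPM in Pd1cKO-Tie2, a log2 difference of 0.01 ± 0.14. It was the highest of the 46 genes per kilobase of merged exon, at a mean of 96.0 CPM per kb over the 4 libraries. Cdk4 at 69.1, Ccnd1 at 50.7, Ccnd2 at 39.2 and Cdc20 at 37.0 CPM per kb followed. This order depends in part on the annotated lengths. In CPM the means of Ccnd2 were higher, at 382 in Pd1fl/fl and 355 in Pd1cKO-Tie2, against 340 and 342 for Cdkn1a. The range of Cdkn1a over the libraries (92.6 to 98.8 CPM per kb) lay above that of Cdk4 (60.4 to 78.7 CPM per kb). Cdkn1b, encoding the inhibitor p27, stood at 26.2 and 57.0 CPM in Pd1fl/fl and at 56.2 and 20.3 CPM in Pd1cKO-Tie2, so each genotype held a high and a low library (log2 difference -0.12 ± 0.59).

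In S phase, 1 of 13 genes passed the unadjusted test (7.69%, near the 6.39% of all tested genes). Rrm1, encoding the large subunit of ribonucleotide reductase (chr7:102441695-102469771, plus strand), stood at 248 and 228 CPM in Pd1fl/fl and at 181 and 178 CPM in Pd1cKO-Tie2. The libraries did not overlap, and Rrm1 fell by 0.41 ± 0.15 on the log2 scale to 0.755 of its Pd1fl/fl level (edgeR adjusted p = 0.753). Rrm2, its small subunit, which is made mainly in S phase, had 25.5 and 13.9 CPM in Pd1fl/fl and 18.7 and 19.3 CPM in Pd1cKO-Tie2, with a log2 difference of -0.05 ± 0.42. The Pd1cKO-Tie2 libraries of Rrm2 lay between those of Pd1fl/fl.

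Of the 6 MCM helicase subunits, only Mcm3 and Mcm4 had libraries that did not overlap between the genotypes, as was the case for 35.8% of all tested genes, and none of the 6 passed the test. Mcm4 stood at 43.2 and 34.3 CPM in Pd1fl/fl and at 25.3 and 27.9 CPM in Pd1cKO-Tie2 (log2 difference -0.54 ± 0.29, edgeR adjusted p = 0.906), and Mcm3 at 163 and 117 CPM against 116 and 113 CPM (log2 difference -0.29 ± 0.22). Mcm6 had 168 and 80.6 CPM in Pd1fl/fl and 105 and 102 CPM in Pd1cKO-Tie2, so its 2 controls lay on either side of the mutants. Mcm2 stood at 141 and 85.2 CPM in Pd1fl/fl and at 110 and 84.8 CPM in Pd1cKO-Tie2. Mcm5 stood at 63.2 and 43.3 CPM against 55.1 and 48.0 CPM, and Mcm7 at 70.1 and 54.6 CPM against 66.1 and 69.9 CPM. For Mcm2, Mcm5, Mcm6 and Mcm7 the log2 differences lay between -0.27 and 0.13, with the level of Pd1fl/fl replicate 1 the highest of the 4 libraries in each.

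Among the factors that load and clamp the replication machinery, Cdc6, which loads MCM at origins, showed the largest difference of the 46 genes. It stood at 35.0 and 18.2 CPM in Pd1fl/fl and at 20.1 and 6.45 CPM in Pd1cKO-Tie2, which overlapped, with a log2 difference of -0.99 ± 0.64 (edgeR adjusted p = 0.948). Pcna, the sliding clamp of DNA polymerase, had 14.8 and 10.6 CPM in Pd1fl/fl and 11.6 and 17.7 CPM in Pd1cKO-Tie2 (log2 difference 0.20 ± 0.46). Of its 50-base exon stretches 19.1% occur in other genes, most often in a pseudogene. Tyms, encoding thymidylate synthase, stood at 32.9 and 28.4 CPM in Pd1fl/fl and at 26.5 and 18.2 CPM in Pd1cKO-Tie2, without overlap (log2 difference -0.45 ± 0.34, edgeR adjusted p = 0.975). Cdt1 and Gins2 differed by -0.15 and -0.11 on the log2 scale, both by less than their standard errors. Of the stretches of Gins2 65.4% are shared with other genes, most often with a gene on the opposite strand.

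Of the 11 genes of G2/M control, 1 passed the unadjusted test, Cdc20, which was higher (9.09%, against 2.84% of all tested genes), and none was called lower. Cdc20, which activates the anaphase-promoting complex once chromosomes are attached (chr4:118432901-118437352, minus strand), stood at 53.6 and 56.4 CPM in Pd1fl/fl and at 93.2 and 73.0 CPM in Pd1cKO-Tie2. The libraries did not overlap, and Cdc20 rose by 0.60 ± 0.23 on the log2 scale, or 1.51-fold (edgeR adjusted p = 0.760). Of its stretches 10.6% also occur in other genes, most often in a pseudogene. Bub1, the spindle checkpoint kinase that acts upstream of Cdc20 (chr2:127801122-127831865, minus strand), stood at 29.8 and 20.7 CPM in Pd1fl/fl and at 15.8 and 12.01 CPM in Pd1cKO-Tie2, without overlap, with a log2 difference of -0.86 ± 0.38 (edgeR adjusted p = 0.841). Bub1b, another checkpoint protein, had 16.0 and 21.6 CPM in Pd1fl/fl and 27.7 and 19.8 CPM in Pd1cKO-Tie2, which overlapped.

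Ccnb1, encoding cyclin B1, stood at 34.9 and 51.8 CPM in Pd1fl/fl and at 43.3 and 39.8 CPM in Pd1cKO-Tie2, with the mutants between the controls (log2 difference -0.06 ± 0.30). Other genes share 23.4% of its stretches, a Ccnb1 pseudogene the most. Cdk1, the kinase that cyclin B1 activates, had 18.5 and 17.96 CPM in Pd1fl/fl and 12.97 and 12.1 CPM in Pd1cKO-Tie2, without overlap (log2 difference -0.54 ± 0.37, edgeR adjusted p = 0.956). Plk1, the Polo-like kinase of mitotic entry and cytokinesis, stood at 6.45 and 6.83 CPM in Pd1fl/fl and at 6.65 and 1.39 CPM in Pd1cKO-Tie2, where the last value rests on 19 reads. Its log2 difference of -0.72 ± 0.93 came from Pd1cKO-Tie2 replicate 2, and without that library it was 0.0078. Aurka, the Aurora kinase of the spindle poles, stood at 35.2 and 25.4 CPM in Pd1fl/fl and at 23.8 and 17.1 CPM in Pd1cKO-Tie2 (log2 difference -0.57 ± 0.36). Aurkb and Birc5, which sit together in the chromosomal passenger complex, differed by 0.03 ± 0.30 and -0.07 ± 0.39. Ccna2 and Ccnb2 also overlapped between the genotypes (log2 differences -0.47 ± 0.47 and 0.35 ± 0.80).

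Of the 10 genes of the chromosome and spindle machinery, 9 had a log2 difference below 0 and none passed the test. Top2a, the topoisomerase that untangles sister chromatids (chr11:98992943-99024189, minus strand), stood at 105 and 85.3 CPM in Pd1fl/fl and at 81.4 and 45.3 CPM in Pd1cKO-Tie2, without overlap (log2 difference -0.58 ± 0.33, edgeR adjusted p = 0.914). Cenpf, a kinetochore protein, had 39.7 and 38.2 CPM in Pd1fl/fl and 21.6 and 29.7 CPM in Pd1cKO-Tie2, also without overlap (log2 difference -0.60 ± 0.30, edgeR adjusted p = 0.891). Cenpa, the histone H3 variant of centromeres, did not overlap either (log2 difference -0.39 ± 0.29). Kif11, the kinesin that pushes spindle poles apart, stood at 19.6 and 33.9 CPM in Pd1fl/fl and at 21.8 and 8.72 CPM in Pd1cKO-Tie2, and Prc1, which bundles microtubules of the central spindle, at 30.8 and 19.9 CPM against 9.79 and 20.1 CPM. Both overlapped, and the low library of the mutants was replicate 2 for Kif11 and replicate 1 for Prc1. Kif23, a kinesin of cytokinesis, was the gene with a difference above 0 (0.41 ± 0.81), with 17.5 and 3.81 CPM in the Pd1cKO-Tie2 libraries around the 6.59 and 9.44 CPM of Pd1fl/fl. Tpx2, Kif20a, Nusap1 and Cenpe had log2 differences between -0.43 and -0.13.

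Mki67, encoding the proliferation antigen Ki-67 (chr7:135689784-135716361, minus strand), stood at 40.4 and 38.5 CPM in Pd1fl/fl and at 28.6 and 42.3 CPM in Pd1cKO-Tie2. The mutants lay on either side of the controls, with a log2 difference of -0.16 ± 0.31 (edgeR adjusted p = 1.00).

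**Figure D3:**
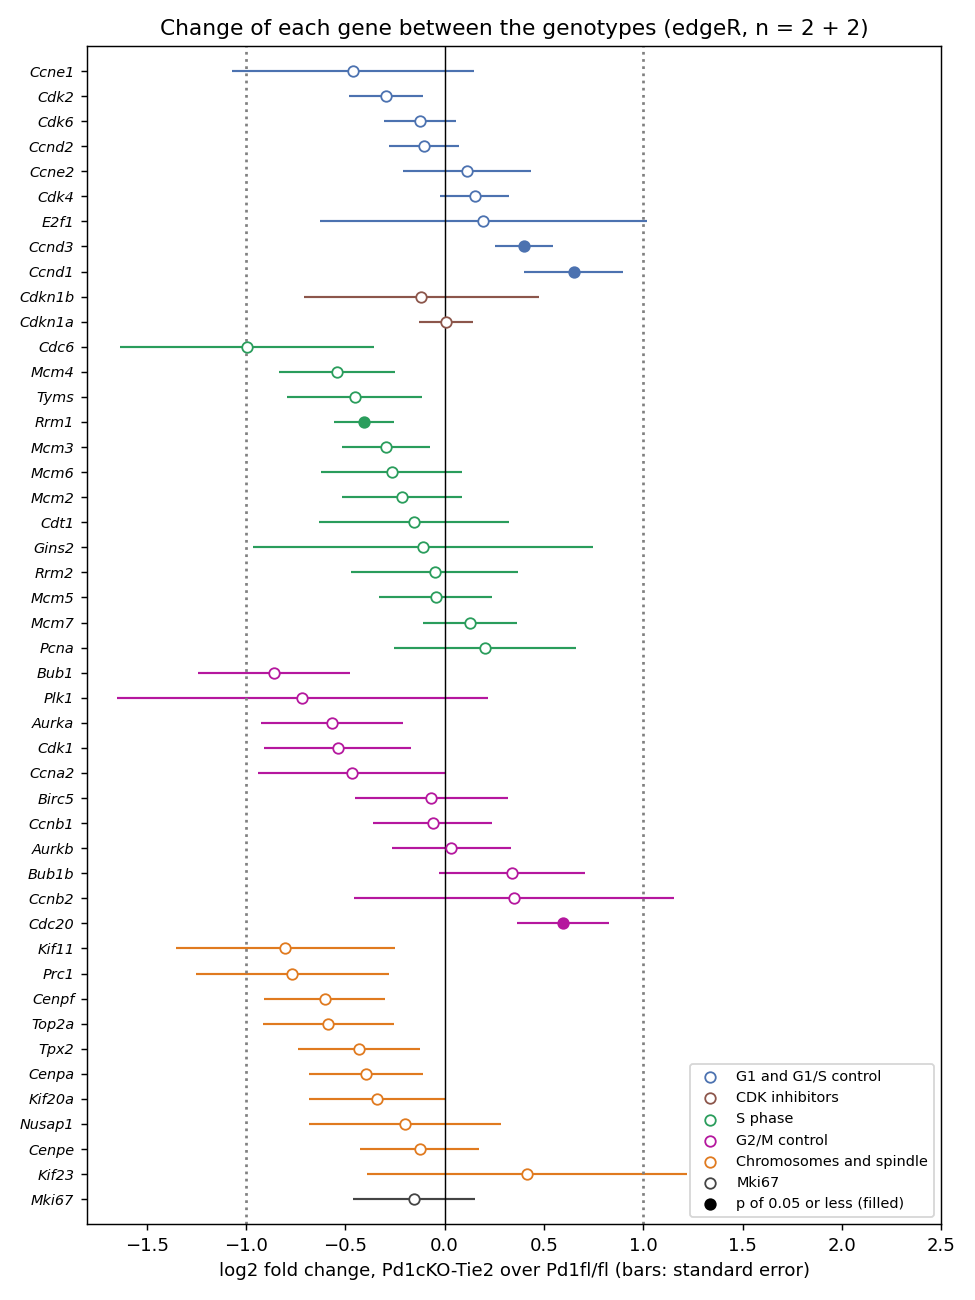
Log2 fold change of each of the 46 genes between Pd1cKO-Tie2 and Pd1fl/fl, with bars for the standard error and dotted lines at 2-fold; filled points have an edgeR p of 0.05 or less. The filled points are Ccnd1, Ccnd3, Rrm1 and Cdc20, no point past the test reaches a dotted line, and 33 of the 46 points lie below 0.

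Set side by side, the S phase genes and the G2/M and spindle genes both had medians below 0, and 2 of these 34 genes had passed the test, Rrm1 lower and Cdc20 higher. The median log2 difference was -0.21 over the 13 S phase genes, 11 of which lay below 0, and -0.39 over the 21 genes of G2/M control and the spindle, 16 of which lay below 0. The median over all 46 genes was -0.15, with 33 of them (71.7%) below 0, against a median of -0.0038 and 50.4% below 0 over all tested genes. Genes whose libraries did not overlap numbered 14 (30.4%, against 35.8% of all tested genes). Of these 3 were higher in Pd1cKO-Tie2 (6.52%, against 17.7%) and 11 were lower (23.9%, against 18.1%). Cell cycle genes of one phase rise and fall together, so these genes do not count as independent observations.

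The phase medians were set in part by single libraries. The summed level of the S phase genes was 1030 and 732 CPM in Pd1fl/fl and 760 and 699 CPM in Pd1cKO-Tie2. All 13 S phase genes were lower in Pd1fl/fl replicate 2 than in Pd1fl/fl replicate 1, as were 48.8% of all tested genes, while 8 of 13 were lower in Pd1cKO-Tie2 replicate 2 than in replicate 1. Without Pd1fl/fl replicate 1 the S phase median turned to 0.14, and without Pd1fl/fl replicate 2 it was -0.46. Pd1fl/fl replicate 1 is the library with the most RNA of neutrophil genes. Neutrophils carry CD45, and a gate on it would remove them. Of these genes, Mpo stood at 168 CPM there, but also at 23.9 CPM in Pd1fl/fl replicate 2 and 53.5 CPM in Pd1cKO-Tie2 replicate 1. The part of neutrophils in the high S phase levels of Pd1fl/fl replicate 1 was not tested. Pd1fl/fl replicate 1 also had the most pericyte and smooth muscle RNA, at a summed 5489 CPM against 3550 to 3662 CPM in the other libraries. Rgs5 alone made up 4916 CPM of it. All 5 markers of oligodendrocyte precursors were lower in Pd1fl/fl replicate 2 than in replicate 1. They summed to 162 and 87.6 CPM in Pd1fl/fl and to 183 and 93.9 CPM in Pd1cKO-Tie2. The part of either list in the S phase levels was not tested.

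For the G2/M control and spindle genes the lowest library was Pd1cKO-Tie2 replicate 2. Its median log2 deviation from the mean of each gene was -0.31. Pd1fl/fl replicate 1 was the highest, at 0.29 for these genes and 0.36 for the spindle genes alone. It was thus the highest library in both phases. Their summed level was 789 and 744 CPM in Pd1fl/fl and 748 and 559 CPM in Pd1cKO-Tie2. Within Pd1cKO-Tie2, 17 of 21 genes were lower in replicate 2 than in replicate 1 (81.0%, against 49.9% of all tested genes), 10 of them among the 11 G2/M control genes. The largest ratios of replicate 1 to replicate 2 were 4.78 for Plk1, 4.59 for Kif23, 2.66 for Nusap1 and 2.51 for Kif11. Without Pd1cKO-Tie2 replicate 2 the median of the 21 genes was -0.059. That library also had the most erythroid RNA, at a summed 1075 CPM against 574 to 663 CPM in the other libraries, with Hba-a1 alone at 817 CPM. Its neuron markers summed to 937 CPM, against 931 to 1300 CPM in the others. Their median deviation was the lowest there, at -0.33 against -0.074 to 0.24, with 8 of 10 below replicate 1. For radial glia and neural progenitor markers it was also the lowest, at -0.38 against -0.055 to 0.51, with 7 of 10 below replicate 1. Their sum was not the lowest, at 977 CPM against 941 CPM in Pd1cKO-Tie2 replicate 1. The part of any of these in its G2/M levels was not tested. The comparison of replicates was added after the values were seen.

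**Figure D4:**
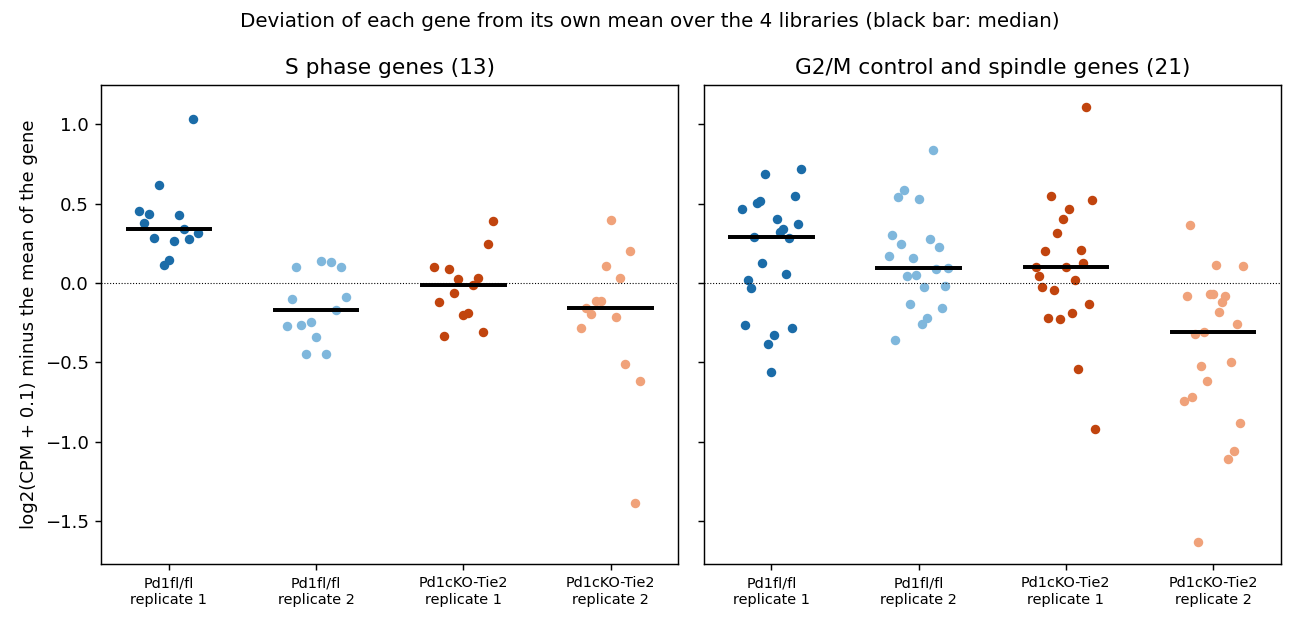
Deviation of each S phase gene (left, 13 genes) and each G2/M control or spindle gene (right, 21 genes) from its own mean over the 4 libraries, as log2(CPM + 0.1), with a black bar for the median of each library. The S phase median is highest in Pd1fl/fl replicate 1 (0.34) and the G2/M median lowest in Pd1cKO-Tie2 replicate 2 (-0.31), while the other libraries lie between -0.17 and 0.29.

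A list of 156 other genes of the cycle, which holds none of the 46, was called about as often as the background. Of the 154 that were tested, 10 had an edgeR p of 0.05 or less (6.49%, against 6.39% of all tested genes), with 4 higher and 6 lower in Pd1cKO-Tie2. By the study's criterion 5 had changed (3.25%, against 4.02%). The median log2 difference was -0.19 over 50 S phase genes, -0.26 over 76 G2/M genes and -0.09 over 28 inhibitors and pocket proteins. Of the S phase genes of this list, 38 of 50 (76.0%) were lower in Pd1fl/fl replicate 2 than in replicate 1. Within Pd1cKO-Tie2, 33 of 50 (66.0%) were lower in replicate 2. Of the G2/M genes, 50 of 76 (65.8%) were lower in replicate 2 within Pd1fl/fl and 46 of 76 (60.5%) within Pd1cKO-Tie2. The shares over all tested genes were 48.8% in Pd1fl/fl and 49.9% in Pd1cKO-Tie2. In this list replicate 2 was thus more often the lower library in both phases and both genotypes. Cdkn2a, encoding p16 and ARF, was at 0 in all 4 libraries.

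The genes past the criterion in this list act in replication, repair, centromeres and the pocket protein pathway. Hells, a chromatin remodeller of S phase, stood at 35.2 and 33.7 CPM in Pd1fl/fl and at 13.3 and 13.3 CPM in Pd1cKO-Tie2 (log2 difference -1.37 ± 0.31, edgeR adjusted p = 0.735). Rbl1, encoding the pocket protein p107, had 25.3 and 24.3 CPM in Pd1fl/fl and 10.5 and 6.37 CPM in Pd1cKO-Tie2 (log2 difference -1.55 ± 0.42, edgeR adjusted p = 0.735). Brca1, a DNA repair gene, ran from 37.7 and 14.4 CPM in Pd1fl/fl to 4.35 and 0.806 CPM in Pd1cKO-Tie2 (log2 difference -3.30 ± 0.93, edgeR adjusted p = 0.735). In these genes the controls lay above the mutants without overlap. Cenpl, a centromere protein, had 60.8 and 79.0 CPM in Pd1fl/fl and 43.7 and 23.7 CPM in Pd1cKO-Tie2 (log2 difference -1.05 ± 0.37, edgeR adjusted p = 0.741). Chaf1a, a subunit of the histone chaperone CAF-1, was the gene that rose, from 8.39 and 4.30 CPM in Pd1fl/fl to 15.1 and 18.2 CPM in Pd1cKO-Tie2 (log2 difference 1.39 ± 0.53, edgeR adjusted p = 0.753). None of the 154 had an adjusted p under 0.05 by edgeR. By DESeq2 1 of the 154 did, Brca1 (DESeq2 adjusted p = 0.0195), against 0.672% of all genes that DESeq2 gave an adjusted p. Brca1 held 104 and 11 reads in the Pd1cKO-Tie2 libraries.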

How the data were processed

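Endothelial RNA was sequenced in 2 libraries per genotype, grouped by the sample labels. One Pd1cKO-Tie2 column has a replicate number absent from the labels and was used by its genotype alone. The submitters' processing notes name TopHat2 2.0.12, Bowtie2 2.2.3 and HTSeq 0.6.0 and the build mm9, whereas the positions in the tables are those of GRCm38 (90.1% equal GENCODE M21, as did 44 of the 46 genes). The use of strand is not given in the sources used here. The authors deposited 4 tables, each pairing 1 library of each genotype, with whole-number read counts per gene, not normalized. The authors' CPM columns hold counts divided by the library total with 0.5 reads in place of 0, and served here only to recover the totals. The deposited columns of fold changes and p-values hold the authors' comparisons and were not used.

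The tables were joined to 21578 genes after 10 broken lines were skipped. Where a table omits a gene, the library was given a count of 0, while up to 4 reads are possible. Unlisted reads made up 0.00495% to 0.0107% of a library, totals were 13715837 to 24147311, and intervals from counts would cover counting error only. Counts were tested with edgeR 4.0.16 in R 4.3.3 (quasi-likelihood F test), with filterByExpr (15909 genes), TMM scaling and no covariate, and with Benjamini-Hochberg adjustment over those genes. Their common biological coefficient of variation was 0.61. Levels are TMM-scaled CPM, per kilobase over merged exon lengths of GENCODE M21. Promoter windows came from RefSeq (GRCm38.p6), 1 entry per gene, the one nearest the gene start of the tables. Shared stretches of 50 bases were counted with Python 3.11.15. DESeq2 1.42.0, limma-voom 3.58.1, other scalings, other filters and leaving out each library were alternatives. Tested on simulated counts for this comparison (14740 genes), edgeR recovered 77% of 4-fold and 89% of 8-fold changes by the study's criterion, and it also called 410 unchanged genes. Smaller changes, such as those of the genes described here, were not simulated.

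Members, lists, motifs and tests were chosen with earlier results of these data known. Values in every library are given for Mki67, the MCM, Pcna, Rrm2, Ccnb1, Plk1 and Top2a, for genes past a p of 0.05, for genes of at least 1.5-fold whose libraries did not overlap, and for the 2 largest differences of each phase. Further genes were named, and the shares of D-type cyclins, the order per length and the shared stretches computed, after their values were seen.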

Additional observations from a re-analysis of the deposited data

How the results depend on the processing

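No paired analysis was possible because the labels of the genotypes share only 1 replicate number. With each library left out in turn, the genes with an edgeR p of 0.05 or less numbered 1 to 4 (0 to 1 higher, 0 to 4 lower), those also past 2-fold 0 to 4, and those with an adjusted p under 0.05 numbered 0. The 4 past 2-fold appeared without Pd1cKO-Tie2 replicate 1 and were Cdc6, Kif11, Nusap1 and Top2a, all lower. Genes that did not overlap numbered 24 to 32 (14 to 24 lower, 7 to 14 higher), as 3 libraries overlap less often by construction, and the other cycle genes past the p numbered 6 to 20. Shares over all tested genes are not given for the fits with a library left out. Whether these counts differ from the background of the same fits was therefore not tested. The S phase median ran from -0.46 to 0.14 and the G2/M and spindle median from -0.48 to -0.059. The log2 difference ran from 0.36 to 1.02 for Ccnd1, 0.33 to 0.48 for Ccnd3, 0.42 to 0.77 for Cdc20 and -0.46 to -0.34 for Rrm1.

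Directions turned in 11 genes without Pd1fl/fl replicate 1, 8 without Pd1fl/fl replicate 2, 4 without Pd1cKO-Tie2 replicate 1 and 11 without Pd1cKO-Tie2 replicate 2, and none of these genes had passed the test. Their log2 differences ran from -0.46 to 0.11 for Mki67, -0.31 to 0.26 for Ccnb1, -1.04 to 0.52 for Ccne1, -0.18 to 0.49 for Ccne2, -0.31 to 0.087 for Ccnd2, -0.28 to 0.054 for Cdk6, -2.24 to 0.0078 for Plk1, -0.30 to 0.32 for Aurkb, -0.51 to 0.58 for Birc5, -0.37 to 0.18 for Cenpe, -1.06 to 1.13 for Kif23, -1.06 to 0.34 for Nusap1, -0.53 to 0.20 for Mcm2, -0.29 to 0.26 for Mcm5, -0.70 to 0.36 for Mcm6, -0.039 to 0.32 for Mcm7, -0.12 to 0.48 for Pcna, -0.42 to 0.46 for Rrm2, -0.39 to 0.14 for Gins2, -0.74 to 0.27 for Cdt1, -0.27 to 0.80 for E2f1, -0.035 to 0.058 for Cdkn1a and -1.02 to 0.55 for Cdkn1b. The remaining library of a genotype was then assumed to vary like the other genotype.

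Scaling by library size alone left 1 gene at a p of 0.05 or less, Rrm1, and 0 higher, moved the median of all genes to -0.066, and turned Aurkb (-0.022) and Cdkn1a (-0.056). Limma-voom turned Birc5 (0.050) and Rrm2 (0.0085). With no filter beyond 1 count 0 genes were lower at that p. DESeq2, RLE and upper quartile scaling and a minimum of 10 counts in every library changed no call and no direction of the 46 genes. The cause of these shifts was not tested. With 2 libraries per genotype, single differences under about 0.3 on the log2 scale were smaller than most standard errors, and the data do not show that such genes were equal.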
